A study of Mus musculus with 27 samples.

Results

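The regulatory T cell (Treg) genes described here are 81 of the 18194 mouse genes measured, chosen because their transcripts were high in the least mature Foxp3+ thymocytes and low in both of the Foxp3-negative populations set beside them. A gene belonged to the set when the mean log2 intensity of its brightest probe set in Foxp3+ CD24hi thymocytes was at least 1 above the mean in Treg precursors and at least 1 above the mean in Foxp3- CD24hi thymocytes, while precursors and Foxp3- CD24hi cells lay within 0.4 of each other. A log2 difference of 1 is a 2-fold difference. Foxp3 itself was a member, as were Cyp4f18, Cavin1, Pim1, Phlpp1, Gbp3 and Hdac9. The members were therefore chosen by the measured means of these 3 groups, so differences between them are descriptions and were not tested, whereas 18 arrays of the other 6 groups were not used in the choice.

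Messenger RNA was measured on 27 Affymetrix arrays from BALB/c mice, 3 in each of 9 groups. The thymic groups were Foxp3+ GFP+ Treg cells sorted by the amount of CD24 they carried (CD24hi has the most, CD24int less and CD24lo the least), CD25+ CD4 single-positive Treg precursors without the Foxp3-GFP reporter signal, and Foxp3- cells at the same 3 CD24 levels. CD24 is a surface protein that falls as thymocytes mature, so CD24hi cells are the least mature and CD24lo cells the most mature. The 2 peripheral groups came from lymph node and were Tregs and naive T cells. All 9 groups came from the same strain with no treatment named, the reporter allele and the age of the mice are not given in the sources used here, and the CD24 level of the precursors is not given either. The Foxp3- thymocytes are conventional T cells by the stated design, even though Treg appears in the names of those samples. The labels do not say whether the 3 samples of a group came from separate animals, so every error below measures the spread between these samples, which may be technical.

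Foxp3 is the forkhead transcription factor that defines Tregs, and its loss causes fatal autoimmunity in mice. In the thymus, CD4 cells that receive strong T cell receptor signals first raise the interleukin-2 receptor chain CD25 and then, under interleukin-2 and STAT5 signalling, begin to express Foxp3. Part of the Treg programme, including Il2ra, Ctla4 and Ikzf2, is known to appear before or without Foxp3, while other genes change only once Foxp3 is present.

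The arrays were comparable in scale. Deposited intensities ran from 3.55 to 24083 with array medians of 30.3 to 32.0, replicates correlated at 0.987 to 0.997 across genes, and the median gene had a level of 5.76 log2. The Foxp3- CD24hi replicate 3 array stood apart, because the summed intensity of 7 liver transcripts was 6777.7 there, against 149.3 and 160.5 in the other 2 arrays of its group and 129.5 to 178.2 in the remaining 24 arrays. That array entered the choice of members: without it the rule found 76 genes, of which 66 were among the 81, and for those 76 the number called is given once beside that of each comparison, while all other counts are of the 81. The summed intensity of 9 double-positive thymocyte markers was 794.7 to 867.4 in Foxp3+ CD24hi arrays, against 1584.4 to 3391.4 in precursors and 1425.1 to 1688.6 in Foxp3- CD24hi arrays. Mean Cd24a levels were 10.34 log2 in Foxp3+ CD24hi cells, 11.74 in precursors and 10.93 in Foxp3- CD24hi cells. The part of this maturity difference in the membership was not tested. In samples of many cells, fewer cells expressing a gene and less RNA per cell cannot be told apart.

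Of the 18194 genes, 251 (1.38%) were at least 1 above precursors in Foxp3+ CD24hi cells and 480 (2.64%) were at least 1 above Foxp3- CD24hi cells. Both held for 179 genes, of which 89 were already at least 0.4 higher in precursors than in Foxp3- CD24hi cells, 9 were at least 0.4 lower, and the remaining 81 form the set. Of 21 measured genes in a Treg signature list, 8 were among those 89, including Il2ra, Ctla4 and Nrp1, which were 3.74, 2.96 and 2.72 higher in precursors than in Foxp3- CD24hi cells. Foxp3 was the single member from that list. At the edges of the rule, Slc22a5 (1.005) and Ankrd24 (1.0059) lay just inside the limit against precursors, with Smad7 (0.985) and Gpr155 (0.9724) just outside. Against Foxp3- CD24hi cells Rgs11 (1.004) and Foxo1 (1.005) lay inside, and Crebrf (0.9978) and Ak5 (0.9927) outside. Itih5 (0.3958) and Arid5b (0.3933) were inside the band between precursors and Foxp3- CD24hi cells, with Gm30054 (0.4128) and Zc3h12d (0.4168) outside.

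Foxp3 checked the sorts. It gave 10.19, 10.07 and 9.96 log2 in the Foxp3+ CD24hi arrays, against 4.14, 3.97 and 3.80 in precursors and 3.94, 4.16 and 3.31 in Foxp3- CD24hi arrays. The 12 Foxp3+ and lymph node Treg arrays lay between 9.74 and 10.19, and all 15 other arrays lay at 4.37 or below. Its level in lymph node Tregs (9.91, 10.03 and 9.74 log2) differed by -0.01 ± 0.17 (SE) from that in Foxp3+ CD24lo thymocytes, so Foxp3 transcript was at about the same height at every stage sampled.

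Cyp4f18, which encodes an enzyme that hydroxylates leukotriene B4, had the next largest differences in the choice, 3.84 above precursors and 3.82 above Foxp3- CD24hi cells. Its arrays read 8.07, 8.37 and 7.15 log2 in Foxp3+ CD24hi cells, against 3.93, 4.15 and 3.98 in precursors and 3.89, 4.24 and 3.99 in Foxp3- CD24hi cells. No array of the precursor or Foxp3- CD24hi groups came within 2 log2 units of the Foxp3+ CD24hi arrays. Behind it came Cavin1, a coat protein of caveolae (3.08 above precursors and 3.12 above Foxp3- CD24hi cells). Pim1, a serine/threonine kinase induced by cytokines through STAT5, was 2.50 and 2.63 above those groups, and Phlpp1, a phosphatase that acts on Akt, 2.57 and 2.38. The other leading members, ordered by the smaller of their 2 differences, were Gbp3 (2.48 and 2.19), Hdac9 (1.99 and 2.33), Klf3 (1.89 and 2.17), Rragd (2.05 and 1.87), Lncpint (1.96 and 1.82), Dapl1 (1.87 and 1.81) and Slc35d1 (1.79 and 1.74). All 81 members had their 3 Foxp3+ CD24hi arrays above all 6 arrays of the other groups, a property that 7.68% of genes share and that the choice itself favours.

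**Figure D1:**
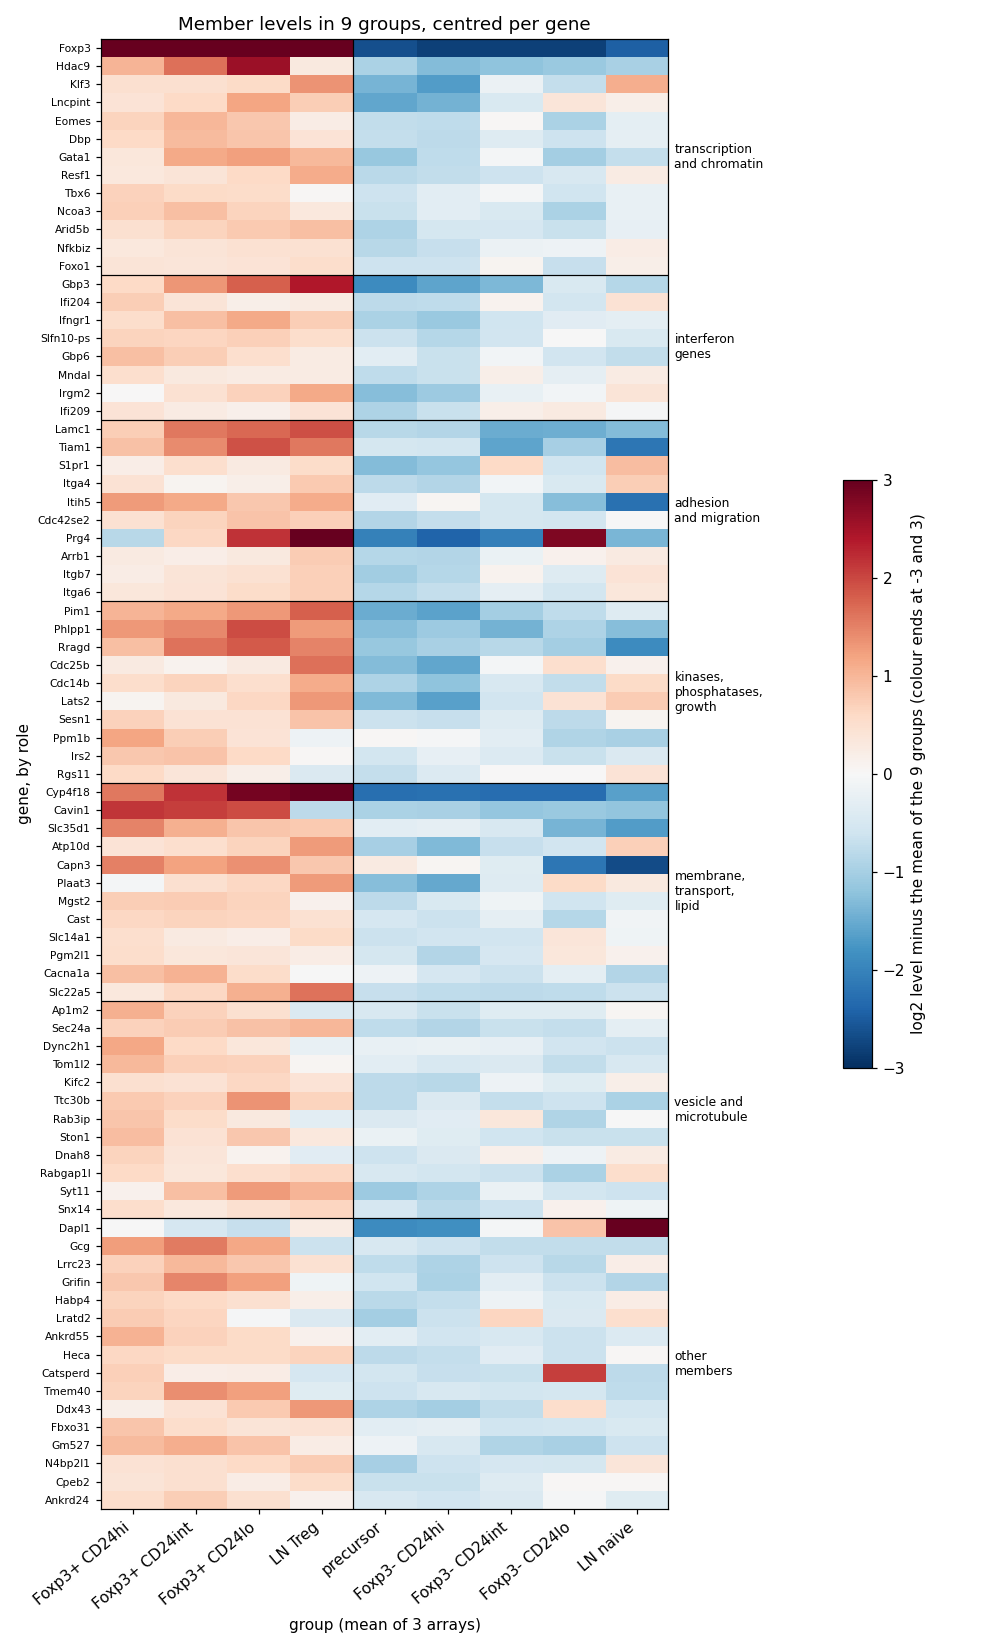
Heat map of the 81 members (rows, ordered by role) in the 9 groups (columns), coloured by mean log2 intensity minus the gene's own mean over the 9 groups, with the colour scale ending at -3 and 3. Most rows are high in the Foxp3+ and lymph node Treg columns and low in precursor and Foxp3- CD24hi columns, and single rows such as Dapl1, Prg4 and Catsperd depart from that in the Foxp3- CD24lo or lymph node naive column.

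The next 3 comparisons share no arrays with each other or with the 3 groups of the rule, although the spread was estimated from all arrays. They asked whether the genes also differed between Foxp3+ and Foxp3- cells at CD24int and at CD24lo and between lymph node Tregs and naive cells. Each was tested with limma, and a gene passed when its p-value, adjusted by Benjamini-Hochberg over the 18194 genes, was under 0.05. At CD24int 64 members were higher in Foxp3+ cells and 0 were lower, where 8.66% of all genes were higher and 6.62% lower. At an unadjusted p under 0.05, limma again put 0 members lower in Foxp3+ CD24int cells, where 11.5% of all genes were. At CD24lo 63 members were higher in Foxp3+ cells and 3 lower, against 9.85% and 11.2% of all genes. In lymph node 52 members were higher in Tregs and 4 lower, against 8.01% and 4.35% of all genes. The median log2 difference over the 81 members was 1.06 at CD24int, 1.22 at CD24lo and 0.56 in lymph node, while the median over all genes was -0.01, -0.01 and -0.04. For the 76 members chosen without the Foxp3- CD24hi replicate 3 array, the counts higher and lower were 62 and 0, 60 and 2, and 50 and 3.

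The lymph node differences were the smallest by the median. All 3 lymph node Treg arrays lay above all 3 naive arrays for 57 members (14.1% of all genes), whereas the Foxp3+ arrays lay wholly above the Foxp3- arrays for 67 members at CD24int (13.1%) and for 67 at CD24lo (15.2%). A 2-fold or larger higher call was made for 43 members at CD24int, 49 at CD24lo and 22 in lymph node, against 2.87%, 3.13% and 3.13% of all genes. By gene, 42 members were higher in all 3 comparisons, a pattern found in 3.47% of genes, and 10 were higher at both thymic stages with no call in lymph node (2.29%). Another 8 were called higher at CD24lo alone (3.2%) and 6 at CD24int and in lymph node but not at CD24lo (1.08%). Another 3, Lncpint, Nfkbiz and Rgs11, passed in none of the 3 comparisons, as 71.1% of genes did. Lncpint, a long noncoding RNA, had replicate arrays from 5.35 to 6.95 log2 in Foxp3+ CD24int cells, against 4.63 to 6.16 in Foxp3- CD24int cells, and those ranges overlapped. Its difference of 1.06 ± 0.59 at CD24int had the largest standard error among the leading members. Nfkbiz, an inhibitor-like protein of NF-kB, differed by 0.55, 0.60 and 0.23 (SE 0.25 each, adjusted p = 0.175, 0.104 and 0.691), and at CD24int and CD24lo it passed in the fit of the 18 arrays alone (0.0191 and 0.00729). These values come from 1 of 3 Nfkbiz probe sets. With their mean Nfkbiz was higher in all 3 comparisons, by 0.64, 0.67 and 0.69 (adjusted p = 0.00553, 0.00252 and 0.00326), and an equally bright second probe set differed by 0.78, 0.79 and 0.99. Rgs11, a regulator of G protein signalling, read 6.79, 6.25 and 6.21 log2 in lymph node Tregs, against 7.61, 7.05 and 7.15 in naive cells. Its difference of -0.85 ± 0.30 (adjusted p = 0.0618) passed with the replicate number as a block (0.000141), which pairs these samples, without lymph node Treg replicate 1 (0.0424) and after quantile normalization (0.0326).

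**Figure D2:**
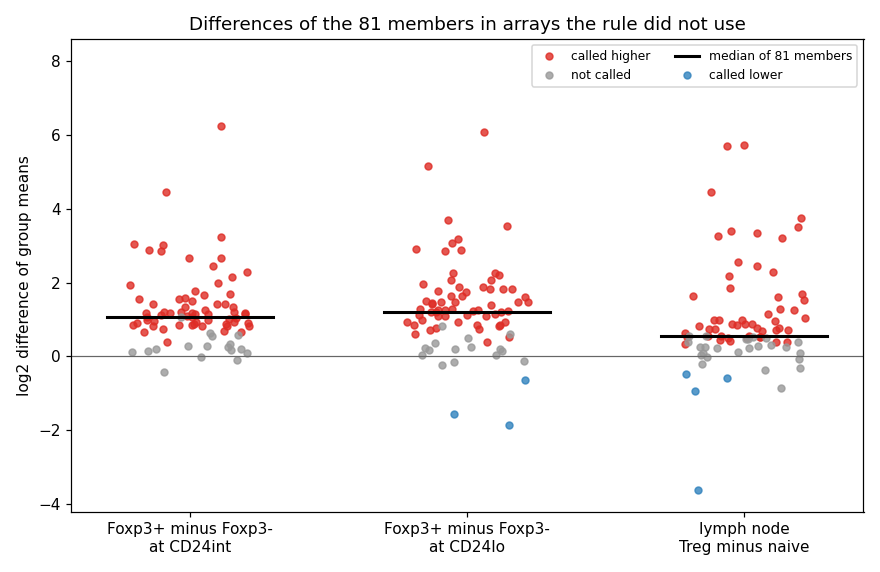
Log2 differences of the 81 members (points) in 3 comparisons, Foxp3+ minus Foxp3- at CD24int, Foxp3+ minus Foxp3- at CD24lo and lymph node Treg minus naive, with a line at the median. The medians are 1.06, 1.22 and 0.56, Foxp3 is the highest point in each column, and the lowest points are Dapl1 at CD24int and in lymph node and Catsperd at CD24lo.

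Among 13 transcription and chromatin factors, 9 were higher in Foxp3+ cells at CD24int, 11 at CD24lo and 8 in lymph node Tregs, with 0 lower in each. This grouping and the other role groups were made after the members were known. Over all 81 members 64, 63 and 52 were higher, against 8.66%, 9.85% and 8.01% of all genes. Those shares belong beside the counts of every role group and gene list below. No role or list was tested against the rest. Hdac9, a class IIa histone deacetylase that removes acetyl groups from histones and from Foxp3, read 7.10, 7.15 and 7.24 log2 in Foxp3+ CD24lo cells, against 3.45, 3.41 and 3.58 in Foxp3- CD24lo cells. Lymph node arrays of Hdac9 gave 5.01, 4.80 and 4.83 in Tregs, against 3.53, 3.53 and 3.77 in naive cells. The Foxp3+ arrays lay far above their counterparts in the thymus and by less in lymph node. Its difference was 3.68 ± 0.19 at CD24lo (12.9-fold, adjusted p = 1.89e-13) and 1.27 ± 0.19 in lymph node (2.41-fold, adjusted p = 2.17e-05).

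Foxo1 and Klf3, transcription factors of quiescent and recirculating T cells, behaved otherwise. Foxo1, the forkhead factor that Akt holds out of the nucleus, read 10.89, 10.87 and 11.02 log2 in Foxp3+ CD24lo cells, against 9.83, 9.77 and 9.81 in Foxp3- CD24lo cells. At CD24int it read 10.88, 10.86 and 10.88 in Foxp3+ cells, against 10.78, 10.35 and 10.61 in Foxp3- cells. The Foxp3+ arrays lay close together at both stages, and the Foxp3- arrays were lower at CD24lo. Foxo1 was 1.12 ± 0.11 higher at CD24lo (2.18-fold, adjusted p = 1.30e-08), with a difference of 0.29 ± 0.11 at CD24int (adjusted p = 0.0713) that passed without Foxp3- CD24int replicate 1 (adjusted p = 0.0199). Its lymph node difference of 0.35 ± 0.11 (adjusted p = 0.0322) lost the call without lymph node Treg replicate 1 (0.138) or 2 (0.0771), without any one of the 3 naive arrays (0.0743, 0.0834 and 0.0860), or after quantile normalization (0.0646).

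Klf3, a zinc finger repressor, read 10.50, 10.55 and 10.54 log2 in Foxp3+ CD24int cells, against 10.15, 9.85 and 9.60 in Foxp3- CD24int cells. Its lymph node levels were 11.40, 11.43 and 11.34 in Tregs, against 11.27, 11.20 and 10.95 in naive cells. Its highest levels were thus in lymph node, in Tregs and naive cells alike. The difference was 0.66 ± 0.20 at CD24int (adjusted p = 0.0230), 1.29 ± 0.20 at CD24lo (adjusted p = 1.81e-05) and 0.25 ± 0.20 in lymph node (adjusted p = 0.535). The CD24int call was lost on leaving out any one of the Foxp3+ CD24int replicates 1, 2 or 3 (0.0502, 0.0638 and 0.0573) or Foxp3- CD24int replicates 2 or 3 (0.0639 and 0.130).

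Eomes, a T-box factor better known from CD8 T cells and natural killer cells, was 0.97 ± 0.18 higher in Foxp3+ cells at CD24int and 1.77 ± 0.18 higher at CD24lo (adjusted p = 0.000356 and 4.28e-08). Its arrays read 7.51, 7.05 and 7.20 log2 in Foxp3+ CD24lo cells, against 5.32, 5.42 and 5.72 in Foxp3- CD24lo cells. Eomes was the single member among 6 CD8 T cell markers, of which 2 were higher and 3 lower in Foxp3+ CD24lo cells. Their summed intensity was 641.1 to 665.3 in Foxp3+ CD24lo arrays, against 1673.2 to 1956.8 in Foxp3- CD24lo arrays, and its brightest gene was Klrd1, which natural killer cells express too. In lymph node it differed by 0.52 ± 0.18 (adjusted p = 0.0691), which passed without lymph node naive replicate 1 (0.0111) and when samples were blocked by replicate number (0.0448). Gata1, known as an erythroid and mast cell factor, was higher by 1.22, 2.25 and 1.68 (SE 0.23 each) at CD24int, at CD24lo and in lymph node. Dbp, a circadian leucine zipper factor, was higher by 1.35, 1.46 and 0.68 (SE 0.15 each), and Ncoa3, a nuclear receptor coactivator, by 1.35, 1.62 and 0.54 (SE 0.11 each).

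The interferon group held 8 members, of which 5 were higher in Foxp3+ cells at CD24int, 7 at CD24lo and 6 in lymph node Tregs. Gbp3, Gbp6 and Irgm2 are GTPases induced by interferon that act against intracellular pathogens, Ifngr1 is a chain of the interferon gamma receptor, and Mndal, Ifi204 and Ifi209 belong to the p200 family of DNA-binding proteins. Genes of these families have close relatives, and a share of signal from relatives was not tested. The promoters of Gbp3 and Irgm2 are shown because each holds matches to motifs of interferon and STAT signalling, and that of Dapl1, a member described below that ran against the set, because it holds a forkhead core, the motif of the Foxp3 family. The 250 bases before the most upstream annotated start are given 5′ to 3′ from RefSeq (GRCm38.p6), for Gbp3 at chr3:142559794-142560043, for Irgm2 at chr11:58214727-58214976 and for Dapl1 at chr2:59484403-59484652, all on the + strand, with motif matches in capitals.
Gbp3: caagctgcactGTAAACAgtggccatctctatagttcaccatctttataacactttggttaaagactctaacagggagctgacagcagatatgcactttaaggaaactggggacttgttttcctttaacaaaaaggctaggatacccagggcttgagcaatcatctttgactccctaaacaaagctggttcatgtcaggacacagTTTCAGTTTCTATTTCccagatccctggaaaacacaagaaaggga
Irgm2: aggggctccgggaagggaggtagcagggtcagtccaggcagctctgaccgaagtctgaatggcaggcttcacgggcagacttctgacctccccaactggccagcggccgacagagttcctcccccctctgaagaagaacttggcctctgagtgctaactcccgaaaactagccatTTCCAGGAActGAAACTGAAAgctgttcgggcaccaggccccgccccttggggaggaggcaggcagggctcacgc
Dapl1: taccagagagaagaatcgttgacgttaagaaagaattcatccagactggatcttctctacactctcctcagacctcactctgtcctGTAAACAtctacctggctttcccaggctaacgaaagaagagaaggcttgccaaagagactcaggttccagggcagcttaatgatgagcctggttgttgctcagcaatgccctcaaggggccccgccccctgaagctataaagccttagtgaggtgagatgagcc
In Gbp3 the capitals mark a forkhead core (GTAAACA on this strand) whose first base is 239 before the start and a pair of overlapping interferon-stimulated response element cores at 45 and 39. In Irgm2 they mark a gamma-activated site, which STAT proteins bind, at 75 and a response element core at 64, and in Dapl1 a forkhead core at 164.

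Those motifs were chosen after the data were seen, were searched on both strands, and a match is a description of letters and not a site. Promoters were in the table for 62 of the 81 members and for 27025 genes in all. The interferon-stimulated core (GAAA, any 2 bases, GAAA) lay in 5 of the 62 members (8.06%), against 3.46% of all genes. The gamma-activated site TTCNNNGAA lay in 6 members (9.68% against 8.13%), the forkhead core TGTTTAC in 3 (4.84% against 3.54%) and the NF-kB motif (GGGA, any 3 bases, CCC) in 2 (3.23% against 5.44%). The response element core was held by Eomes, Gbp3, Irgm2, Lats2 and Mndal, and the forkhead core by Dapl1, Gbp3 and Pim1.

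Gbp3 read 10.04, 10.32 and 10.00 log2 in Foxp3+ CD24int cells, against 7.46, 7.29 and 7.60 in Foxp3- CD24int cells. Lymph node Gbp3 arrays gave 11.31, 11.23 and 11.07 in Tregs, against 8.24, 8.05 and 7.50 in naive cells. Among the 18 arrays the rule did not use, every Foxp3+ or Treg array was above every Foxp3- or naive array, as for 2.92% of genes. The difference was 2.67 ± 0.16 at CD24int (6.37-fold, adjusted p = 6.44e-12), 2.26 ± 0.16 at CD24lo (4.79-fold) and 3.27 ± 0.16 in lymph node (9.65-fold, adjusted p = 1.34e-13). Ifngr1 was higher by 1.50, 1.47 and 1.05 (SE 0.15 each), Gbp6 by 0.81, 1.09 and 0.97 (SE 0.12 each) and Irgm2 by 0.66, 0.77 and 0.75 (SE 0.15 each). The p200 genes were uneven. Mndal (0.52 ± 0.15, adjusted p = 0.0115) and Ifi204 (0.71 ± 0.24, adjusted p = 0.0341) were higher at CD24lo, whereas Ifi209 was higher in lymph node (0.45 ± 0.12, adjusted p = 0.00795). These 3 calls were lost without Foxp3- CD24lo replicate 2 (0.0805) or 3 (0.0583) for Mndal, without Foxp3+ CD24lo replicate 2 (0.0702) or 3 (0.133) or Foxp3- CD24lo replicate 2 (0.228) for Ifi204, and without lymph node Treg replicate 1 (0.0698) for Ifi209.

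Other interferon genes were mixed in direction. Of 19 measured genes in an interferon response list, none of them members, 2 were higher in Foxp3+ cells and 6 lower at CD24int, 5 higher and 8 lower at CD24lo, and 4 higher and 3 lower in lymph node Tregs. The shares of all genes were 8.66%, 9.85% and 8.01% higher and 6.62%, 11.2% and 4.35% lower. The list's median difference was -0.16, -0.06 and 0.10, where the median of all genes was -0.01, -0.01 and -0.04.

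Of 10 members that act in adhesion, matrix and migration, 7 were higher at CD24int, 8 at CD24lo with 1 lower, and 7 in lymph node. Lamc1, a laminin chain, read 7.81, 7.54 and 7.30 log2 in Foxp3+ CD24int cells, against 4.66, 4.51 and 4.31 in Foxp3- CD24int cells. Tiam1, an exchange factor that activates Rac, read 10.87, 10.78 and 10.71 in lymph node Tregs, against 7.38, 6.89 and 6.84 in naive cells. Neither gene's groups overlapped in any of the 3 comparisons. Lamc1 was higher by 3.06, 3.19 and 3.21 (SE 0.23 each) and Tiam1 by 3.02, 2.91 and 3.75 (SE 0.15 each). Itih5, a hyaluronan-associated protein, was higher by 1.65, 2.08 and 3.34 (SE 0.18 each).

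The trafficking receptors were different. S1pr1, the sphingosine 1-phosphate receptor that lets mature T cells leave the thymus and lymph nodes, read 8.89, 8.59 and 8.49 log2 in Foxp3+ CD24lo cells, against 7.85, 8.01 and 7.54 in Foxp3- CD24lo cells. At CD24int it read 8.95, 8.67 and 9.04 in Foxp3+ cells, against 9.24, 8.79 and 8.90 in Foxp3- cells. The groups were apart at CD24lo and overlapped at CD24int, as they also did in lymph node. From CD24int to CD24lo the mean went from 8.89 to 8.66 in Foxp3+ cells and from 8.98 to 7.80 in Foxp3- cells. The Foxp3- CD24lo arrays also carried natural killer and NKT transcripts, described below. Their part in the CD24lo differences of these receptors was not tested. S1pr1 was 0.86 ± 0.23 higher at CD24lo (adjusted p = 0.00772), a call lost without Foxp3- CD24lo replicate 3 (0.0534), and differed by -0.09 ± 0.23 at CD24int and by -0.37 ± 0.23 in lymph node (adjusted p = 0.878 and 0.399). Itga4 and Itgb7, the chains of the integrin that guides lymphocytes to gut, also passed at CD24lo alone. Itga4 was 0.62 ± 0.15 higher at CD24lo (adjusted p = 0.00359, and 0.159 when all its probe sets were averaged) and Itgb7 0.84 ± 0.11 (adjusted p = 1.67e-06). At CD24int and in lymph node Itga4 differed by 0.15 and 0.04 (adjusted p = 0.627 and 0.926) and Itgb7 by 0.28 and 0.30 (0.0887 and 0.0755). The Itga4 groups overlapped at CD24int and in lymph node, while the Itgb7 arrays of Foxp3+ CD24int cells lay above all those of Foxp3- CD24int cells, and those of lymph node Tregs above all those of naive cells. The Itgb7 differences passed without Foxp3- CD24int replicate 1 (0.0296) and without lymph node naive replicate 1 (0.0397), and the lymph node difference also with the replicate block (0.0184).

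Of 10 kinases, phosphatases and growth signalling genes, 8 were higher at CD24int, 7 at CD24lo and 7 in lymph node, with 0 lower. Pim1 read 11.97, 11.65 and 11.68 log2 in lymph node Tregs, against 9.71, 9.73 and 9.30 in naive cells. Phlpp1 read 9.44, 9.91 and 9.87 in Foxp3+ CD24lo cells, against 6.96, 6.85 and 6.79 in Foxp3- CD24lo cells. Both kept all Foxp3+ and Treg arrays above all others among the 18 arrays the rule did not use, as 2.92% of genes did. Pim1 was higher by 2.16, 2.08 and 2.19 (SE 0.13 each, adjusted p from 6.01e-12 to 9.76e-12) and Phlpp1 by 2.86, 2.88 and 2.57 (SE 0.13 each, adjusted p from 2.34e-14 to 2.60e-13). Rragd, a Rag GTPase that signals amino acids to mTORC1, was higher by 2.45, 2.85 and 3.39 (SE 0.20 each). Sesn1, an inhibitor of mTORC1, was higher by 0.82, 1.22 and 0.78 (SE 0.12 each), and Irs2, a docking protein of the insulin receptor, by 1.25 and 1.26 in the thymus (SE 0.20 each) with 0.48 ± 0.20 in lymph node (adjusted p = 0.147). Pim1 was the single member among 16 measured interleukin-2 and STAT5 targets, of which 8, 10 and 10 were higher and 1, 2 and 1 lower at CD24int, at CD24lo and in lymph node.

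All 12 members placed with membrane, transport, lipid and proteolysis were higher in Foxp3+ cells at CD24int, 9 at CD24lo and 10 in lymph node Tregs. The shares of all genes higher there were 8.66%, 9.85% and 8.01%. Cyp4f18 read 8.22, 9.04 and 8.12 log2 in Foxp3+ CD24int cells, against 3.88, 4.21 and 3.93 in Foxp3- CD24int cells. At CD24lo it read 9.30, 9.48 and 8.71 in Foxp3+ cells, against 3.91, 4.22 and 3.91 in Foxp3- cells. Its lymph node levels were 10.51, 10.52 and 10.08 in Tregs, against 4.59, 4.70 and 4.69 in naive cells. Its level was low in every Foxp3-negative group and was highest in lymph node Tregs. The difference was 4.46 ± 0.25 (21.9-fold), 5.15 ± 0.25 (35.6-fold) and 5.71 ± 0.25 (52.4-fold, adjusted p = 1.09e-14).

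Capn3, a calcium-dependent protease best known from muscle, read 9.86, 9.70 and 9.84 log2 in Foxp3+ CD24lo cells, against 5.69, 6.23 and 6.89 in Foxp3- CD24lo cells. It was higher by 1.56 ± 0.29 at CD24int, 3.53 ± 0.29 at CD24lo and 3.51 ± 0.29 in lymph node (11.6-fold at CD24lo, adjusted p = 9.61e-10). Slc22a5, a carnitine transporter, was higher by 1.41, 1.81 and 2.29 (SE 0.13 each) and Slc35d1, a transporter of nucleotide sugars, by 1.55, 2.22 and 2.46 (SE 0.36 each). Cast, the inhibitor of calpain proteases, was higher by 0.94, 1.49 and 0.56 (SE 0.14 each).

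Cavin1 read 6.56, 7.83 and 7.88 log2 in Foxp3+ CD24int cells, against 4.13, 4.23 and 4.20 in Foxp3- CD24int cells. In lymph node it read 4.51, 4.54 and 4.65 in Tregs, against 3.87, 4.17 and 4.47 in naive cells. The thymic arrays were widely apart, and the lymph node arrays were separated by little. Cavin1 was 3.23 ± 0.26 higher at CD24int (9.40-fold, adjusted p = 7.90e-10) and 3.08 ± 0.26 higher at CD24lo, and differed by 0.40 ± 0.26 in lymph node (adjusted p = 0.414).

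Several of these values rest on 1 of a gene's probe sets. With the mean of all probe sets in place of the brightest, the difference at CD24int was 2.26 for Cyp4f18, 1.00 for Cavin1, 1.76 for Lamc1, 0.84 for Tiam1, 0.90 for Rragd and 1.46 for Hdac9, and all 6 stayed called in the same direction. Rabgap1l, a GTPase-activating protein, differed by 0.09 ± 0.25 in lymph node (adjusted p = 0.907) but by 0.86 with the mean of its probe sets (0.000381), and its second brightest probe set gave 1.02 there and 1.27 at CD24lo. The 2 other Cavin1 probe sets had mean levels of 2.96 and 3.97 log2 and differences of -0.11 and -0.13 at CD24int.

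**Figure D3:**
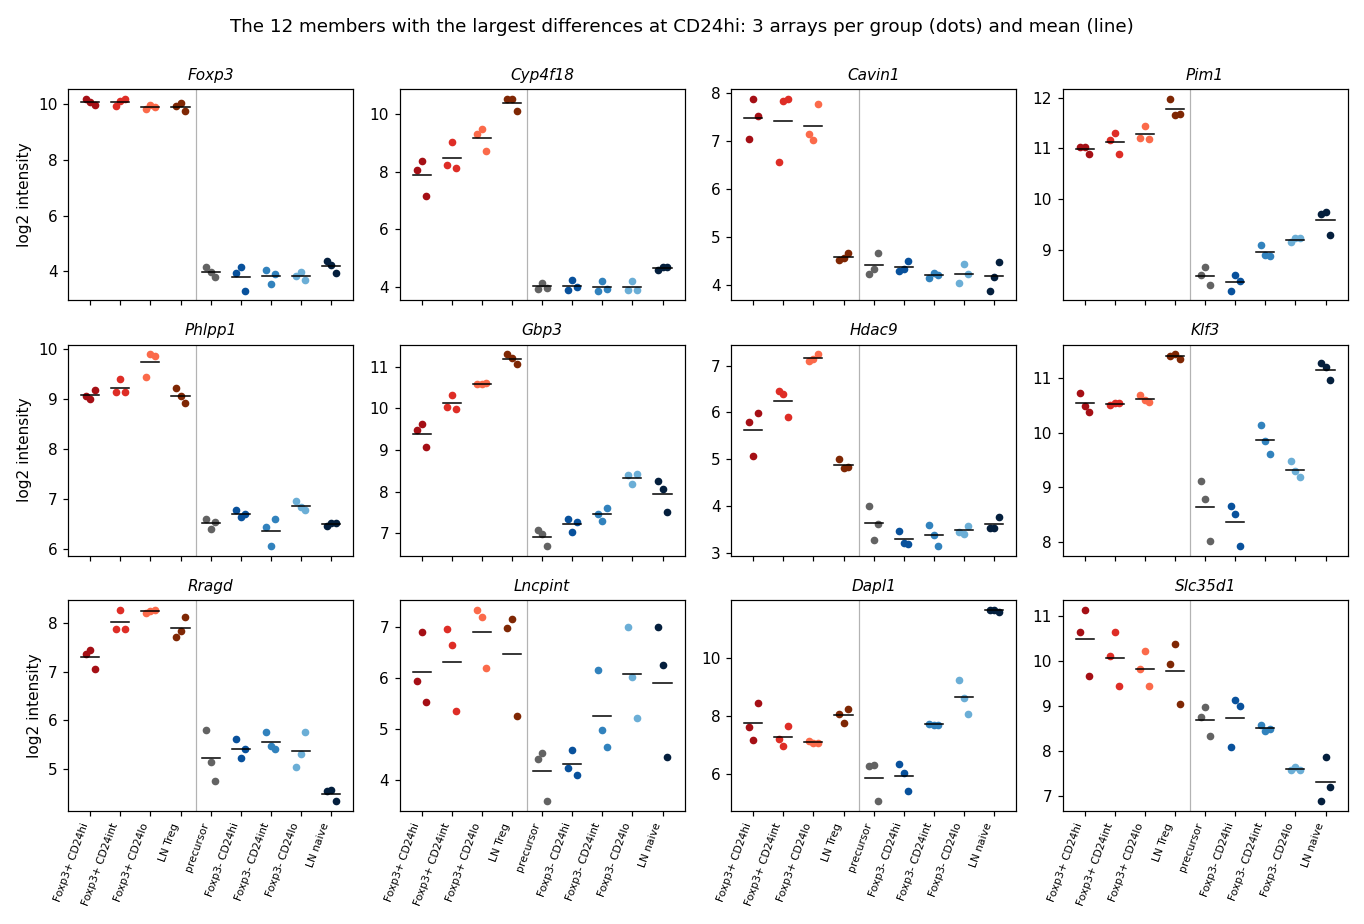
Log2 intensity of the 12 leading members in the 9 groups, with a dot for each of the 3 arrays and a line at their mean. Cyp4f18, Pim1, Phlpp1, Gbp3 and Rragd are high in all 4 Foxp3+ or Treg groups, Cavin1 and Hdac9 are high in the 3 thymic Foxp3+ groups and lower in lymph node Tregs, and Dapl1 is highest in lymph node naive cells at 11.59 to 11.66.

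Of 12 members tied to vesicles, microtubules and cilia, 9 were higher at CD24int, 10 at CD24lo and 7 in lymph node, where 2 were lower. Sec24a, a cargo-selecting coat protein of vesicles that leave the endoplasmic reticulum, was higher by 1.42, 1.60 and 1.27 (SE 0.15 each), and Syt11, a synaptotagmin, by 1.10, 1.82 and 1.64 (SE 0.14 each). Ap1m2, a subunit of the AP-1 clathrin adaptor, read 5.87, 5.68 and 5.97 log2 in lymph node Tregs, against 6.29, 6.28 and 6.39 in naive cells. In the thymus its difference had the other sign: it was 1.06 ± 0.14 higher at CD24int and 0.86 ± 0.14 higher at CD24lo. The lymph node difference of -0.48 ± 0.14 (adjusted p = 0.0239) lost its call without lymph node Treg replicate 1 (0.0542) or 2 (0.127) or any one of the 3 naive arrays (0.0559, 0.0504 and 0.0900). Dnah8, an axonemal dynein heavy chain, was lower in lymph node Tregs by -0.58 ± 0.12 (adjusted p = 0.000954).

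The remaining 16 members had no shared role: 14 were higher at CD24int, 11 at CD24lo with 2 lower, and 7 in lymph node with 2 lower. Gcg, which encodes proglucagon, read 4.42, 4.47 and 5.95 log2 in Foxp3+ CD24int cells, against 2.56, 2.68 and 2.75 in Foxp3- CD24int cells. In lymph node it read 2.80, 2.65 and 2.82 in Tregs, against 2.45, 2.98 and 2.56 in naive cells. Gcg was among 6 members whose group means all stayed under 6 log2, near the floor of these arrays. It was 2.28 ± 0.36 higher at CD24int (adjusted p = 4.12e-05) and 1.88 ± 0.36 higher at CD24lo, with 0.09 ± 0.36 in lymph node, and the CD24int difference was 1.10 with 16 added before the log. Tmem40, a transmembrane protein, was 1.95 and 1.75 higher in the thymus (SE 0.22 each) and differed by 0.39 ± 0.22 in lymph node (adjusted p = 0.310).

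Dapl1, a gene of naive T cells, ran against the rest of the set. It read 7.63, 7.18 and 8.44 log2 in Foxp3+ CD24hi cells, which made it a member, but 8.06, 7.77 and 8.24 in lymph node Tregs against 11.66, 11.65 and 11.59 in naive cells. At CD24lo it read 7.13, 7.06 and 7.07 in Foxp3+ cells, against 9.23, 8.61 and 8.06 in Foxp3- cells. Foxp3+ arrays were below every Foxp3- array in both comparisons, and the CD24int arrays were too, with a difference of -0.43 ± 0.31 that did not pass (adjusted p = 0.450). Dapl1 was lower by -1.55 ± 0.31 at CD24lo (2.92-fold, adjusted p = 0.000502) and by -3.61 ± 0.31 in lymph node (12.2-fold, adjusted p = 2.95e-09). Lratd2 was also lower in lymph node Tregs, at 7.54, 7.63 and 7.52 log2, against 8.38, 8.67 and 8.44 in naive cells (-0.94 ± 0.13, adjusted p = 8.69e-06). At CD24lo Lratd2 was 0.40 ± 0.13 higher in Foxp3+ cells (adjusted p = 0.0318), a call lost without Foxp3+ CD24lo replicate 3 (0.148) or Foxp3- CD24lo replicates 1 (0.0998) or 2 (0.108), and at CD24int it differed by -0.01 ± 0.13.

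Within Foxp3+ thymocytes the step from CD24int to CD24lo could be tested in arrays the rule did not use. There 1 member was higher and 0 were lower in Foxp3+ CD24lo cells, where 0.011% and 0.0055% of all genes passed in those directions and 0.0165% in either, and at an unadjusted p under 0.05 limma put 10 members higher and 5 lower, against 2.89% and 1.62% of all genes. The median difference over the members was 0.02, and 0.01 over all genes. All Foxp3+ CD24lo arrays lay above all Foxp3+ CD24int arrays for 14 members (4.96% of genes) and below them for 9 (3.72%). The call was Prg4, the joint lubricant lubricin, which read 7.95, 8.62 and 8.26 log2 in Foxp3+ CD24lo cells, against 6.46, 7.28 and 6.50 in Foxp3+ CD24int cells. Its difference of 1.53 ± 0.22 (adjusted p = 0.00418) lost its call without Foxp3+ CD24int replicate 1 (0.0616) or 3 (0.0859) or Foxp3+ CD24lo replicate 2 (0.0507). The next highest differences were those of Hdac9, Cyp4f18 (0.71 ± 0.25) and Ttc30b (0.65 ± 0.26), and the lowest those of Lratd2, Cacna1a (-0.49 ± 0.19), Gcg (-0.40 ± 0.36) and Ppm1b (-0.34 ± 0.12), none of them called (adjusted p from 0.0659 to 1). With the replicate number as a block, which pairs these samples, 3 members passed, where 0.126% of all genes passed. They were Hdac9 (0.91 higher, adjusted p = 0.0339) and Lratd2 (-0.67, adjusted p = 0.0339) beside Prg4. For the 76 members chosen without the Foxp3- CD24hi replicate 3 array 0 passed without a block. Prg4 did not meet the rule without that array, so this 0 does not show a loss of its call. Against Foxp3+ CD24hi cells, which the rule used and which are therefore only described, the means in Foxp3+ CD24lo cells were 3.00 higher for Prg4, 1.55 for Hdac9 and 1.30 for Cyp4f18.

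The same step was tested in Foxp3- thymocytes. In Foxp3- CD24lo cells 12 members were higher and 15 lower than in Foxp3- CD24int cells, against 7.86% and 4.13% of all genes (15 and 14 of the 76). Prg4 read 8.75, 9.00 and 9.01 log2 in Foxp3- CD24lo cells, against 4.43, 4.16 and 3.63 in Foxp3- CD24int cells, a rise of 4.85 ± 0.22 (28.8-fold, adjusted p = 1.38e-13). Catsperd, a subunit of the sperm calcium channel, read 8.35, 7.87 and 8.03 in Foxp3- CD24lo cells, against 5.66, 5.36 and 5.02 in Foxp3- CD24int cells (2.74 ± 0.18, adjusted p = 4.14e-11). Neither gene's groups overlapped. Lower in Foxp3- CD24lo than in Foxp3- CD24int cells were Capn3 (-1.81 ± 0.29), Rab3ip (-1.24 ± 0.12), S1pr1 (-1.18 ± 0.23), Lratd2 (-1.07 ± 0.13), Eomes (-0.99 ± 0.18) and Foxo1 (-0.78 ± 0.11). The Foxp3- CD24lo arrays also carried natural killer and NKT transcripts: the sum of 5 such markers was 3475.5 to 4231.1 there, against 174.9 to 449.8 in Foxp3- CD24int arrays and 353.9 to 644.9 in Foxp3+ CD24lo arrays. Zbtb16, the defining factor of NKT cells, averaged 4.91 log2 in Foxp3+ CD24lo cells and 10.90 in Foxp3- CD24lo cells. The part of these cells in the CD24lo values was not tested.

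For single members the Foxp3 difference itself changed with stage. By signed value, the Foxp3+ minus Foxp3- difference was larger at CD24lo than at CD24int for 5 members and smaller for 3. In that test of the difference itself 1.41% and 3.57% of all genes changed so, 4.97% in either direction (6 and 2 of the 76). Prg4 was higher in Foxp3+ cells at CD24int (2.67 ± 0.22) and lower at CD24lo (-0.64 ± 0.22, adjusted p = 0.0420), a difference between stages of -3.32 ± 0.32 (adjusted p = 1.31e-07). The CD24lo call on Prg4 was lost without Foxp3+ CD24lo replicate 1 (0.220) or 3 (0.0972) or Foxp3- CD24lo replicate 2 (0.119) or 3 (0.124), and also in the fit of the 18 arrays alone (0.0541). Catsperd turned in the same way, 0.86 ± 0.18 higher at CD24int and -1.85 ± 0.18 lower at CD24lo (difference -2.72 ± 0.25, adjusted p = 6.50e-08). For Slc14a1, a urea transporter, the change was -1.0 ± 0.21 (adjusted p = 0.00327), with 0.84 ± 0.15 higher at CD24int and a difference of -0.16 ± 0.15 at CD24lo (adjusted p = 0.566). Capn3 and Foxo1 went the other way, with differences between stages of 1.98 ± 0.42 (adjusted p = 0.00351) and 0.83 ± 0.15 (adjusted p = 0.000898), and the Capn3 change of 1.37 with the mean of its probe sets did not pass (0.0535).

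**Figure D4:**
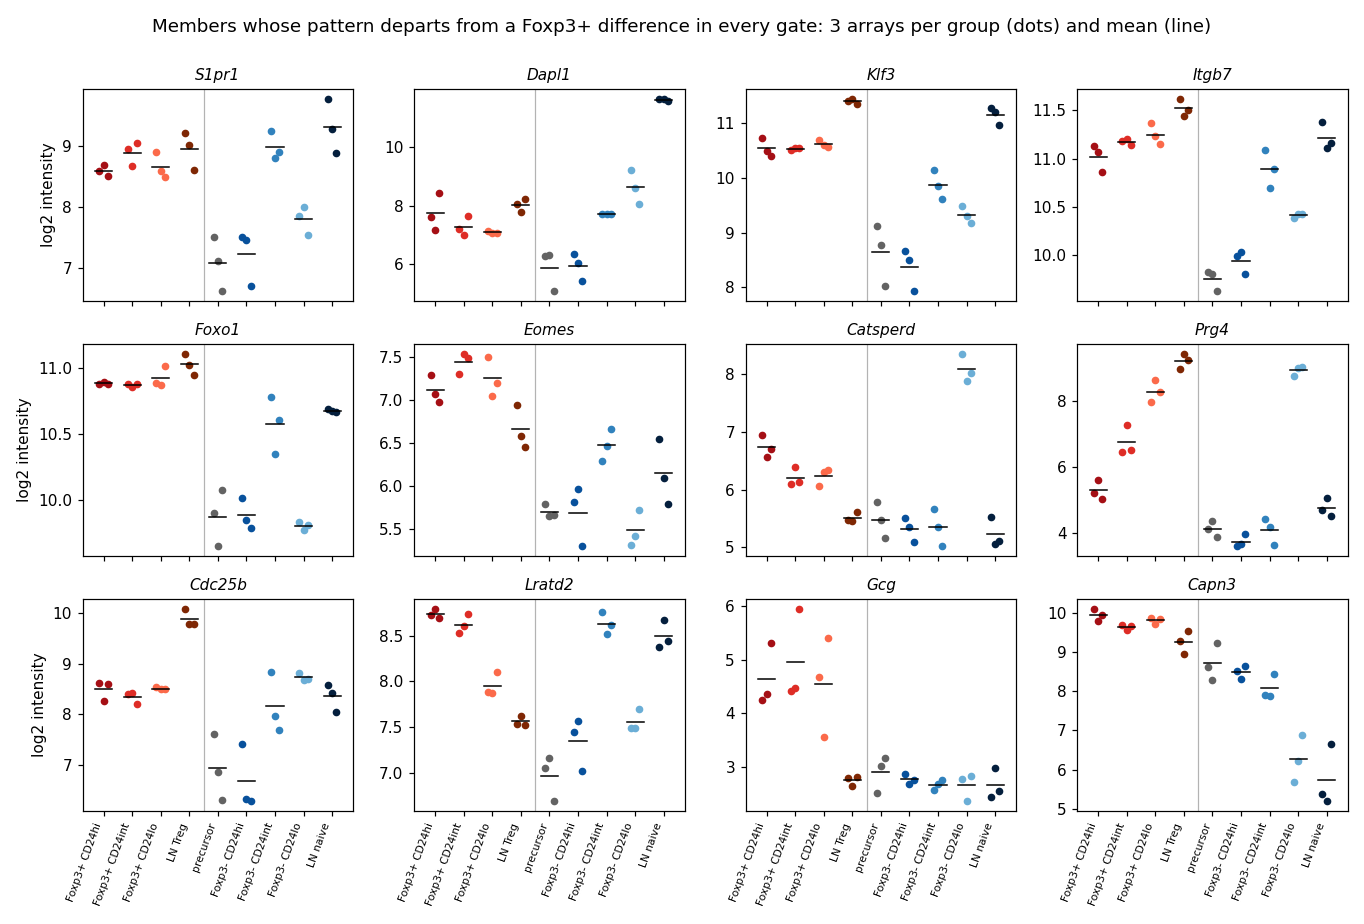
Log2 intensity of 12 members whose Foxp3 difference depended on stage or tissue, in the 9 groups, with a dot for each array and a line at the mean. Prg4 and Catsperd reach 8.75 to 9.01 and 7.87 to 8.35 in Foxp3- CD24lo cells. The means of S1pr1, Klf3, Itgb7 and Foxo1 are lower in Foxp3- CD24lo than in Foxp3- CD24int cells, a difference not called for Klf3.

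In lymph node Tregs against Foxp3+ CD24lo thymocytes 13 members were higher and 16 lower, against 3.15% and 2.78% of all genes, 5.93% in either direction (14 and 18 of the 76). All lymph node Treg arrays lay above all Foxp3+ CD24lo arrays for 23 members (12% of genes) and below them for 31 (8.87%). Hdac9 read 5.01, 4.80 and 4.83 log2 in lymph node Tregs, against 7.10, 7.15 and 7.24 in Foxp3+ CD24lo cells (-2.28 ± 0.19, 4.86-fold, adjusted p = 1.50e-08). Cavin1 read 4.51, 4.54 and 4.65 in lymph node Tregs, against 7.13, 7.02 and 7.77 in Foxp3+ CD24lo cells (-2.74 ± 0.26, 6.67-fold, adjusted p = 7.87e-08). Gcg read 2.80, 2.65 and 2.82 in lymph node Tregs, against 4.67, 3.55 and 5.41 in Foxp3+ CD24lo cells (-1.79 ± 0.36, adjusted p = 0.00193). In all 3 genes the lymph node arrays lay wholly below, and the Cavin1 and Gcg arrays of lymph node Tregs were near those of naive cells. Tmem40 (-1.58 ± 0.22) and Grifin (-1.37 ± 0.21), a relative of the galectins, were lower as well. The vesicle and cilium group had 5 members lower and 0 higher, namely Ap1m2, Tom1l2, Rab3ip, Dync2h1 and Dnah8, of which Dnah8 lost its call with the mean of all probe sets (0.297), without Foxp3+ CD24lo replicate 2 (0.0675) or 3 (0.170) or any one of the 3 lymph node Treg arrays (0.0971, 0.0598 and 0.0842).

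Higher in lymph node Tregs than in Foxp3+ CD24lo thymocytes were Cdc25b, a phosphatase that starts mitosis, and Cyp4f18. Cdc25b read 10.09, 9.79 and 9.78 log2 in lymph node Tregs, against 8.53, 8.50 and 8.49 in Foxp3+ CD24lo cells (1.38 ± 0.28, adjusted p = 0.00255), and Cyp4f18 differed by 1.21 ± 0.25 (adjusted p = 0.00222). Both were apart in every array. Prg4 was 0.93 ± 0.22 higher (adjusted p = 0.0102), a call lost without Foxp3+ CD24lo replicate 1 (0.0882) or lymph node Treg replicate 2 (0.0645), and Dapl1 differed by 0.94 ± 0.31 (adjusted p = 0.0858). Pim1 (0.49 ± 0.13, adjusted p = 0.0259) and Gbp3 (0.61 ± 0.16, adjusted p = 0.0225) passed too. Pim1 lost its call without Foxp3+ CD24lo replicate 1 (0.110) or 3 (0.116) or lymph node Treg replicate 1 (0.168), and Gbp3 without any one of the 3 Foxp3+ CD24lo arrays (0.0698, 0.0678 and 0.0642) or lymph node Treg replicates 1 (0.0998) or 2 (0.0703). With the replicate block, which pairs these samples, 42 members passed in place of 29 (10.6% of all genes in place of 5.93%), including Eomes (adjusted p = 0.0329) and Irgm2 (0.0153). The sum of 8 B cell markers was 4036.7 to 5049.8 in lymph node Treg arrays, against 1529.0 to 1688.0 in Foxp3+ CD24lo arrays and 2691.4 to 2921.6 in lymph node naive arrays, and its part in these differences was not tested.

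Naive cells of the lymph node held more of several members than Foxp3- CD24lo thymocytes did. There 28 members were higher and 8 lower, against 6.03% and 8.58% of all genes (24 and 7 of the 76). Dapl1 rose most, by 3.00 ± 0.31 (7.99-fold, adjusted p = 1.00e-07), followed by Klf3 (1.82 ± 0.20), S1pr1 (1.51 ± 0.23), Rabgap1l (1.49 ± 0.25, and 0.58 with the mean of its probe sets) and Itga4 (1.18 ± 0.15). Prg4 (-4.18 ± 0.22) and Catsperd (-2.86 ± 0.18) were lower in naive cells, where both means (4.75 and 5.23 log2) were near those of Foxp3- CD24int cells (4.07 and 5.35). The sum of natural killer and NKT markers was 3475.5 to 4231.1 in Foxp3- CD24lo arrays, against 467.6 to 504.5 in naive arrays. Its part in all of these differences was not tested.

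The Foxp3 difference was also compared between lymph node and CD24lo directly. It was smaller in lymph node for 30 members and larger for 10, by its signed value. The shares of all genes were 3.92% and 7.05%, and the counts among the 76 were 29 and 9. The median change over the members was -0.51, against -0.03 over all genes. Cavin1 (-2.68 ± 0.36), Hdac9 (-2.41 ± 0.27), Gcg (-1.79 ± 0.51), Rab3ip (-1.51 ± 0.17), Eomes (-1.25 ± 0.26) and Ncoa3 (-1.08 ± 0.15) were among the 30. Of these, Gcg lost its call without Foxp3+ CD24lo replicate 3 (0.0803), Foxp3- CD24lo replicate 2 (0.0572) or lymph node naive replicate 2 (0.0621). Prg4 (5.11 ± 0.32), Catsperd (2.14 ± 0.25), Cdc25b (1.76 ± 0.40), Ddx43 (1.60 ± 0.34), Itih5 (1.26 ± 0.25), Gbp3 (1.01 ± 0.23) and Tiam1 (0.85 ± 0.22) were among the 10, although the Tiam1 change was 0.23 with the mean of its probe sets (adjusted p = 0.459). Foxp3, Cyp4f18, Pim1, Phlpp1, Rragd and Lamc1 had changes of -0.36 to 0.56 that did not pass, with standard errors of 0.19 to 0.35. These comparisons share the CD24lo arrays with the comparison at that stage. The changes also carry the levels of Foxp3- CD24lo cells, whose arrays held natural killer and NKT transcripts (sum 3475.5 to 4231.1). In those cells 12 members were higher and 15 lower than in Foxp3- CD24int cells, with Eomes, Rab3ip and Foxo1 among the 15. The part of this in the changes was not tested.

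**Figure D5:**
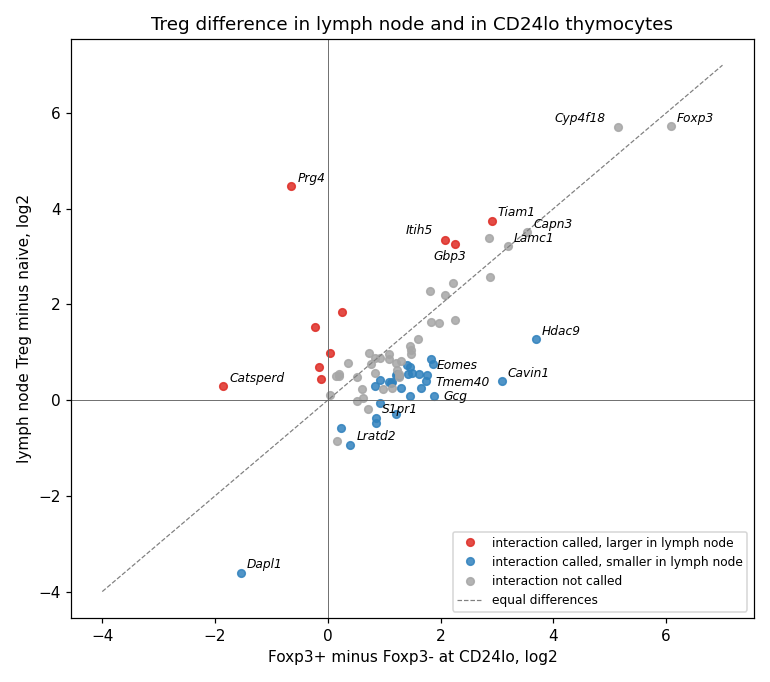
Foxp3 difference of each member at CD24lo (horizontal, log2) against that in lymph node (vertical, log2), coloured by whether the test of the change between the 2 passed, with a dashed line of equal difference. More members lie below the line than above it, with Cavin1 and Hdac9 far below and Prg4 and Catsperd above.

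The label of the set, genes gained only with Foxp3, cannot be decided in the 18 arrays that the choice did not use, because they hold no precursors. They show only whether members set later Foxp3+ cells apart from Foxp3- cells. Il2ra, already 3.74 higher in precursors than in Foxp3- CD24hi cells, was also 5.94, 5.85 and 5.45 higher at CD24int, at CD24lo and in lymph node. In these 18 arrays all 9 Foxp3+ and lymph node Treg arrays lay above all 9 Foxp3- and naive arrays for 35 members, where 2.92% of genes do so. By group means this held for 55 members (11.5% of genes). Among thymic arrays of CD24int and CD24lo cells the Foxp3+ arrays lay wholly above the Foxp3- arrays for 57 members (6.57% of genes). In all 27 arrays 28 members had every Foxp3+ and Treg array above every other, but 9 of those arrays chose the members, so that count is a description. By the same kind of description, 25 members had at least 1 further Foxp3-negative group whose mean was at least 1 above that of Foxp3- CD24hi cells, 7 at CD24int, 12 at CD24lo and 21 in lymph node naive cells. The members were chosen for low means in Foxp3- CD24hi cells, which favours such differences. They are shown by 4.55% of all genes, with 0.874% at CD24int, 3.29% at CD24lo and 2.07% in lymph node naive cells. Dapl1, S1pr1, Klf3, Cdc25b, Lratd2, Plaat3 and Lats2 were high by that measure already at CD24int. The highest of the 9 group means was in lymph node Tregs for 30 members, in Foxp3+ CD24hi cells for 21, in CD24int for 14 and in CD24lo for 13. For Dapl1 and S1pr1 it was in lymph node naive cells, and for Catsperd in Foxp3- CD24lo cells. The rule required high means in Foxp3+ CD24hi cells, and the highest group was not counted over all genes. These counts therefore only describe the members.

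Other genes of the same pathways were counted from lists compiled with earlier results of these data known. Beside these counts, 8.66%, 9.85% and 8.01% of all genes were higher and 6.62%, 11.2% and 4.35% lower in the 3 comparisons. No list was tested against those shares. Of 21 measured genes of thymocyte maturation and egress, which include the members S1pr1, Itgb7, Foxo1 and Dapl1, 3 were higher and 5 lower at CD24int, 9 higher and 4 lower at CD24lo, and 2 higher and 6 lower in lymph node Tregs. Of 25 measured Foxp3 partners and cofactors, which include Hdac9 and Foxo1, 9 were higher and 8 lower at CD24int, 8 higher and 5 lower at CD24lo, and 12 higher and 5 lower in lymph node. Of 18 genes of NF-kB and TNF receptor signalling, with Nfkbiz as the member, 15, 13 and 12 were higher and 0 lower in the 3 comparisons. Of 12 naive T cell genes, with Dapl1 as the member, 0 were higher and 7 lower at CD24int, 3 higher and 4 lower at CD24lo, and 0 higher and 9 lower in lymph node Tregs. Of 24 effector Treg and trafficking genes, including S1pr1, Itgb7 and Itga4, 10 were higher and 3 lower at CD24int, 12 higher and 8 lower at CD24lo, and 17 higher and 1 lower in lymph node Tregs. The Treg signature list itself, with Foxp3 as its member, had 21, 17 and 21 of 21 genes higher and 0, 1 and 0 lower.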

How the data were processed

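Messenger RNA of sorted BALB/c thymocyte and lymph node T cell populations was labelled from 50 ng of total RNA with the Affymetrix 3′ IVT biotin procedure, per the labels' protocols. The values are linear intensity values, 1 per probe set and array, that the authors deposited after RMA normalization, per the submitters' processing notes, which give no version. RMA corrects background and equalizes distributions, so differences of dim probe sets are compressed.

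Of 45101 probe sets, 34958 had 1 gene symbol, 932 had several and 9211 had none. The brightest single-symbol probe set over the 27 arrays stood for each of 18194 genes, and log2 of the intensity was taken with no pseudocount. Groups followed the source labels, with 3 arrays each. A model of 9 group means was fitted to all arrays with limma 3.58.1 in R 4.3.3, with adjustment by Benjamini-Hochberg over all genes, in 9 comparisons of groups the rule did not use. The fit was tested on simulated data for Foxp3+ minus Foxp3- at CD24int, with 50 genes for each true difference. It called 32% of genes with a true log2 difference of 0.5, 88% with 1, 98% with 2 and 96% with -1, with 2.48% false calls. A missing call at a difference of about 0.5 therefore does not show that a difference was absent. The median standard error was 0.145 for 2 groups and 0.205 for a difference of differences, and their precision is set by 3 arrays a group. The members, role groups, gene lists and motifs were chosen with earlier results of these data known. Named genes were Foxp3, the 12 members with the largest smaller rule difference, the 4 highest and 4 lowest members in 5 comparisons, members found in a list and genes beside each threshold, and further members were named after their values were seen. Same-numbered samples deviated together (every pair's correlation over 0.1) in 4 of 9 comparisons, namely lymph node Treg against naive (lowest 0.254), both comparisons of Foxp3+ CD24lo cells with the stage before or after (0.377 and 0.102) and Foxp3- CD24lo against CD24int (0.389), and there the replicate number pairs the samples as a pattern of the data, since the labels do not say what it marks. Where a pair fell under 0.1, the median correlation of same-numbered samples was still 0.244 to 0.344, against -0.157 to -0.064 for other numbers. The limit of 0.1 thus does not mark those comparisons as free of the pattern, and the main fit had no term for it. Alternatives were quantile normalization, the mean of all probe sets, 16 added before the log, a filter on dim genes, an intensity trend, other rule limits, 18 arrays alone, the replicate block and leaving out each array. Promoters are RefSeq sequences of GRCm38.p6 and Python 3.11.15 was used for the choice, counts and figures. No genome was used here.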

Additional observations from a re-analysis of the deposited data

Results flagged for a closer look

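Each gene below is listed because limma's test of a difference between 2 differences passed at an adjusted p under 0.05, that is, because its Foxp3+ minus Foxp3- difference was not the same in 2 settings. Values are log2 changes of that difference. Larger and smaller refer to its signed value and not its size. Dapl1 (-1.55 at CD24lo and -3.61 in lymph node) therefore counts as smaller, and Catsperd (-1.85 and 0.29) as larger.

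Between thymic stages, the difference was larger at CD24lo than at CD24int for Capn3 (1.98), Rab3ip (1.00), Foxo1 (0.83), Syt11 (0.72) and Itgb7 (0.55). It was smaller at CD24lo for Prg4 (-3.32), Catsperd (-2.72) and Slc14a1 (-1.0). Prg4 and Catsperd were called higher in Foxp3+ cells at CD24int and lower at CD24lo, whereas Slc14a1 was called higher at CD24int (0.84) with a difference of -0.16 at CD24lo (adjusted p = 0.566). Prg4 and Catsperd were high in Foxp3- CD24lo cells, whose arrays also carried the sum of natural killer and NKT markers of 3475.5 to 4231.1, against 174.9 to 449.8 in Foxp3- CD24int arrays. The part of those cells was not tested.

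Between tissues, the difference was larger in lymph node than at CD24lo for Prg4 (5.11), Catsperd (2.14), Cdc25b (1.76), Ddx43 (1.60), Itih5 (1.26), Gbp3 (1.01), Plaat3 (0.95), Slc14a1 (0.86), Tiam1 (0.85) and Ifi209 (0.57). It was smaller in lymph node for Cavin1 (-2.68), Hdac9 (-2.41), Dapl1 (-2.06), Gcg (-1.79), Rab3ip (-1.51), Lrrc23 (-1.38), Rabgap1l (-1.38), Tmem40 (-1.36), Ap1m2 (-1.34), Lratd2 (-1.33), Eomes (-1.25), S1pr1 (-1.23), Grifin (-1.12), Ncoa3 (-1.08), Klf3 (-1.04), Habp4 (-1.0), Gm527 (-0.97), Cast (-0.94), Tom1l2 (-0.88), Dnah8 (-0.82), Dbp (-0.78), Foxo1 (-0.77), Mgst2 (-0.75), N4bp2l1 (-0.75), Itga6 (-0.71), Ankrd55 (-0.68), Atp10d (-0.67), Cdc42se2 (-0.67), Itgb7 (-0.53) and Dync2h1 (-0.52). With the mean of all probe sets in place of the brightest, the change between stages did not pass for Capn3 (1.37), nor that between tissues for Rabgap1l (-0.55), Tiam1 (0.23), N4bp2l1 (-0.23) and Ifi209 (0.59). These values use the CD24lo arrays too, so the genes shared with the comparison of stages are not independent of it.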

How the results depend on the processing

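The choice of members moved with the limits: requiring both differences to reach 0.8 gave 160 genes and 1.2 gave 44. A band of 0.3 or 0.5 gave 63 or 90, quantile normalization 85 and the mean of all probe sets 56. Leaving out 1 array gave 73 to 107, with 73 without Foxp3+ CD24hi replicate 1 and 107 without Foxp3+ CD24hi replicate 3. Called members were also counted on leaving out 1 array of the compared groups, with the members kept as chosen from all arrays. The counts ranged from 60 to 67 at CD24int, 61 to 66 at CD24lo and 51 to 52 in lymph node. They were 20 to 26 for lymph node Treg against Foxp3+ CD24lo and 24 to 28 for Foxp3- CD24lo against CD24int. For lymph node naive against Foxp3- CD24lo they were 28 to 36. The difference between stages had 6 to 9 and that between tissues 35 to 43. For Foxp3+ CD24lo against CD24int the 1 call became 3 with 16 added before the log and 2 when all probe sets were averaged. It became 3 with the 18 arrays alone and 3 with the replicate block. Leaving out an array of the compared groups gave 0 to 1, with 0 without Foxp3+ CD24int replicate 1 or 3 or Foxp3+ CD24lo replicate 2. The 76 members chosen without Foxp3- CD24hi replicate 3, which do not include Prg4, had 0. With the replicate block the difference between stages had 18 calls in place of 8, 69 members passed at CD24int, 67 at CD24lo, 62 in lymph node, 42 for lymph node Treg against Foxp3+ CD24lo, 37 for Foxp3- CD24lo against CD24int, 46 for lymph node naive against Foxp3- CD24lo and 50 between tissues, and all calls made without the block were kept. The share of all genes called rose with the block too, to between 0.126% and 27.6% over the 9 comparisons, and to 8.43% in place of 4.97% for the difference between stages. The cause of these shifts was not tested.

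Over all settings 4088 values of 315 results for single genes were computed. These results are differences between groups and do not cover every member in every comparison. The changes of the Foxp3 difference between stages and between tissues are not among them. Of the 4088 values, 3901 kept their call or their lack of one, 108 lost their call and 79 gained one. None that was called in either fit changed sign. Differences called in neither fit count among the 3901 whatever their sign. Leaving out 1 array accounted for 94 of the lost calls. The mean of all probe sets gave smaller values for several genes whose other probe sets are dim, such as Cavin1, and larger ones for Nfkbiz, which then passed in all 3 Foxp3 comparisons, and for Rabgap1l in lymph node. Dim probe sets limit the 6 members whose means all lie under 6 log2.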
